A study of Mus musculus with 24 samples.

Results

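MHC class II genes and Ciita form a set of 7 mouse genes, H2-Aa, H2-Ab1, H2-Eb1, Cd74, Ciita, H2-DMa and H2-DMb1, picked by name from the 24273 rows of the deposited expression table. All 7 were found, and all 7 were among the 13901 genes whose level was high enough to test. The data were RNA sequencing of bone marrow-derived macrophages (BMDMs), macrophages grown in culture from marrow, of mice on a C57BL/6 background. Control mice are called LysM-Cre, and mice in which Cre should remove Fos (LysM-Cre Fos fl/fl) are called FosKO. BMDMs of each genotype were unstimulated (0 h) or received LPS, which activates TLR4, for 0.5, 1 or 2 h, with 3 libraries in each of the 8 groups and 24 in all, to ask how the response to LPS depends on FOS. Both genotypes carried LysM-Cre, a Cre gene placed in the lysozyme gene Lyz2 and active in myeloid cells. The design text gives the controls no floxed Fos allele, whereas the text of the study gives them a single one (Fos fl/+), and the values cannot settle this.

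The genes lie on 3 chromosomes of GRCm38 in the GENCODE annotation, and each is protein coding. Both H2-DM genes, H2-Ab1, H2-Aa and H2-Eb1 follow each other on chromosome 17: H2-DMa at chr17:34119541-34139101, H2-DMb1 at chr17:34153072-34160230, H2-Ab1 at chr17:34257689-34269419, H2-Aa at chr17:34282744-34287823 on the minus strand and H2-Eb1 at chr17:34305867-34316674. Ciita lies at chr16:10480059-10528418 and Cd74 at chr18:60803848-60812652. H2-DMa overlaps Brd2, CR974462.4 and Gm20493 on the other strand and CR974462.3 on its own, Ciita overlaps Dexi and H2-Eb1 overlaps Gm20513 on the other strand, and Cd74 overlaps Mir5107 on its own. The reads were strand-specific, but the strand setting of the counting was not given in the sources used here, so reads of such partners might not have been told apart, and strand does not separate partners on the same strand.

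MHC class II molecules are pairs of an alpha and a beta chain that carry peptides from ingested protein to the cell surface, where CD4+ T cells read them. H2-Aa and H2-Ab1 encode the chains of I-A, and H2-Eb1 encodes the beta chain of I-E, whose alpha chain gene is broken in C57BL/6 mice. Cd74 encodes the invariant chain that fills the groove until the molecule reaches the endosome, where H2-DM, made of H2-DMa and H2-DMb1, exchanges the remaining fragment for peptide. Ciita encodes the coactivator that is recruited to the promoters of these genes by factors bound at the X and Y boxes, and in macrophages it is known above all for its induction by interferon-gamma.

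The RefSeq promoter table (GRCm38.p6) held 4 of the 7 genes: H2-DMa, H2-DMb1, H2-Aa and H2-Eb1. Their 250 bases before the RefSeq start are shown because these are the elements through which CIITA acts, and because FOS is a subunit of AP-1. Capitals mark matches on either strand to the core of the X box (AACNGATG), the Y box (CCAAT), the cyclic AMP response element (TGACGTCA) and the AP-1 site (TGANTCA), none of which overlapped another here. The windows on the plus strand are chr17:34152941-34153190 for H2-DMb1, chr17:34122582-34122831 for an H2-DMa start that GENCODE also gives, and chr17:34305617-34305866 for H2-Eb1. That of H2-Aa is chr17:34287824-34288073 on the minus strand.
H2-DMb1: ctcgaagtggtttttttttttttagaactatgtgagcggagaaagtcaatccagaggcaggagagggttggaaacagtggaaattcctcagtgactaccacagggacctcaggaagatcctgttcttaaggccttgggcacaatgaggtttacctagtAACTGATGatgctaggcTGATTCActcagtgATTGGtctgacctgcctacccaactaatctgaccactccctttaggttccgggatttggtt
H2-DMa: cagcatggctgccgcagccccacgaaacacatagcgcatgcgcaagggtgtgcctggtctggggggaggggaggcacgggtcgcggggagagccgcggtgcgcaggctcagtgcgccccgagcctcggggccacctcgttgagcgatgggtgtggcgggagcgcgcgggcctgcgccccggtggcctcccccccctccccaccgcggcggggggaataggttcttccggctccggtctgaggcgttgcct
H2-Aa: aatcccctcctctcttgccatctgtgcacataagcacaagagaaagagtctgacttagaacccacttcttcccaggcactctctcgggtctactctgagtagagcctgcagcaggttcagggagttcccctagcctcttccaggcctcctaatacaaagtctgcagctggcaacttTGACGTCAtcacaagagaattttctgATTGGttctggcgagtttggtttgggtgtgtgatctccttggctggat
H2-Eb1: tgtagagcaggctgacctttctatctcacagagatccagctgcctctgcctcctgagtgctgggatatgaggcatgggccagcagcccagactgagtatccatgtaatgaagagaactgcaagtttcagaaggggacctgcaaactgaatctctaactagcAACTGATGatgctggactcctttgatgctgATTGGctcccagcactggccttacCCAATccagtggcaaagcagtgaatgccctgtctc

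The H2-DMb1 window held an X box core that began 92 bases before the start, an AP-1 match 75 bases before it and a Y box 61 bases before it. The GENCODE start of H2-DMb1, at position 34153072, lies inside that window. H2-Eb1 held an X box core at 89 bases and 2 Y boxes, at 59 and 35 bases, and no AP-1 match. The longest run that the H2-DMb1 and H2-Eb1 windows shared, aactgatgatgct, opened with this X box core. It was picked from these 2 windows, so its matches there were fixed in advance. Of all 32851 promoters of the same length, no others held it. H2-Aa held a cyclic AMP response element at 74 bases and a Y box at 48 bases. The H2-DMa window shown, with its start at position 34122832, held none of the 4 motifs as spelled. A further H2-DMa window, with its start at position 34125518, held a Y box and an AP-1 match. GENCODE marks transcripts of H2-DMa that start at 34122832 and at 34135628 as principal. The start at 34135628 had no window, so the bases before it were not searched. Among all promoters the X box core occurred in 1.98%, the cyclic AMP response element in 1.55%, the AP-1 site in 6.75% and the Y box in 33.85%. A match is a string of letters and was not tested as a bound site, and the motifs were chosen with earlier results of these data known.

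Several facts of the whole table bear on the values. Fos itself went against the label at 0, 1 and 2 h and was lower in FosKO at 0.5 h, by a difference of -0.77. Its deposited log2 value was 12.41 to 12.93 in the 12 libraries labelled FosKO and, in LysM-Cre, from 9.42, after 2 h, to 13.57, after 0.5 h, with 11.07 to 11.17 before LPS. A value per gene does not show which exons the reads came from. Ifnb1, the gene of interferon-beta, differed by 0.10, 1.69, 3.18 and 3.00 between FosKO and LysM-Cre in order of time. By quantitative PCR and ELISA, the study reports more Ifnb1 mRNA and more secreted interferon-beta in its FosKO BMDMs after LPS. All directions below rest on the labels, and FosKO means the libraries labelled so. Lyz2, where the Cre sits, was at 10.87 to 11.57 in LysM-Cre and at 16.08 to 16.33 in FosKO. An 18S ribosomal RNA gene, Rn18s-rs5, was at 16.65 to 17.00 in 5 libraries, which were LysM-Cre 0.5 h replicate 3, LysM-Cre 1 h replicates 2 and 3, and replicate 1 of FosKO at 0.5 and at 1 h, and at 18.57 to 19.39 in the other 19. Macrophage markers were high throughout, among them Mertk at 9.07 to 10.99, Csf1r at 14.95 to 15.28 and Cd68 at 15.05 to 15.38. The counts of the 8 higher and lower in FosKO were 4 and 4, 4 and 1, 4 and 2, and 5 and 0 at 0, 0.5, 1 and 2 h, against 18% to 24.4% of all tested genes higher and 15.9% to 20.3% lower. Their sum on the linear scale was 145400.3 to 176675 in LysM-Cre and 211767 to 268949 in FosKO, and without Lyz2 it was 143523 to 174373 and 140584 to 186723. The 6 T cell markers summed to 194 to 240.3 in LysM-Cre and 258 to 349.5 in FosKO, without overlap, nearly all of it Cd4, with the other 5 at 0.66 or lower in log2. The neutrophil markers summed to 51.6 to 103.8 and 35.4 to 56.9. Of other cells rich in class II, the 9 dendritic cell markers summed on the linear scale to 2978 to 3538 in LysM-Cre and 2461 to 3247 in FosKO, mostly Itgax at 11.17 to 11.72 in log2, with the others from Cd209a at -1.98 to -1.94 to Clec10a at 6.28 to 6.93, Zbtb46 at 3.40 to 6.03 and Xcr1 at 3.65 to 5.76. Of the 7 dendritic cell markers tested, the counts higher and lower in FosKO were 0 and 1, 2 and 1, 2 and 1, and 0 and 1 in order of time. The 6 B cell markers summed to 45.9 to 54.6 and 35.6 to 48.2. The part of these shifts in the class II values was not tested. In such bulk samples fewer cells of a type and less RNA per cell cannot be told apart.

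All levels here are normalised log2 values as deposited, and a difference of 1 is a 2-fold change. Per kilobase of exon in the annotation, the level in unstimulated LysM-Cre BMDMs was 10.90 ± 0.02 for Cd74 (mean ± SD, n = 3, log2), the highest of the set, and 2.80 ± 0.08 for Ciita, the lowest. Between them came H2-DMb1 at 8.11 ± 0.07, H2-Eb1 at 7.60 ± 0.08, H2-Aa at 7.33 ± 0.02, H2-Ab1 at 7.24 ± 0.04 and H2-DMa at 5.78 ± 0.13. In unstimulated FosKO BMDMs the neighbours H2-Ab1, at 7.35 ± 0.26, and H2-Aa, at 7.34 ± 0.20, differed by less than their spread, and H2-Eb1 was at 7.65 ± 0.20. The exon length counts all annotated exons of a gene, so the order of close neighbours depends on which transcripts the cells make.

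**Figure D1:**
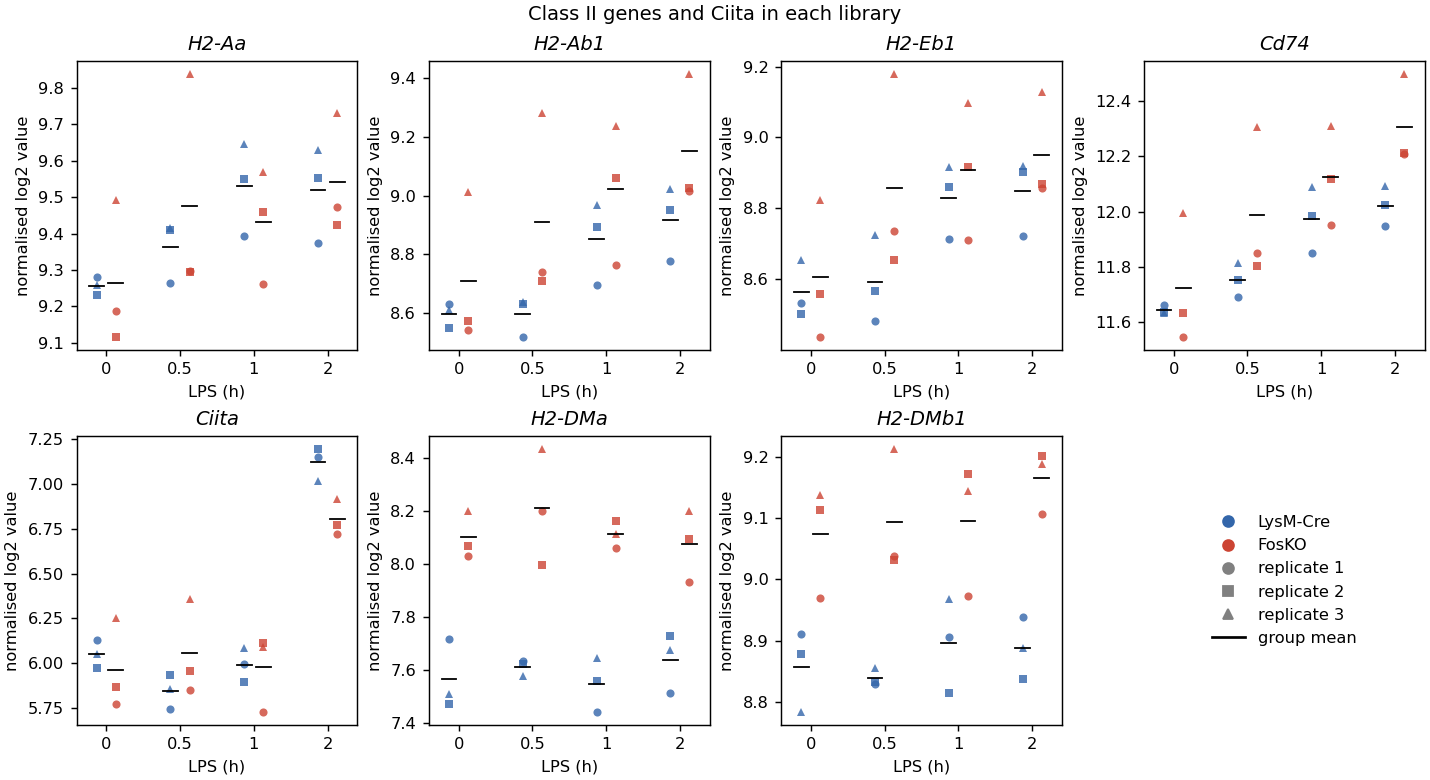
Normalised log2 value (vertical axis) of each gene against hours of LPS (horizontal axis) in the 24 libraries, with LysM-Cre in blue, FosKO in red, a marker shape for each replicate number and a black line at each group mean. The H2-DMa points of FosKO, 7.93 to 8.43, lie above those of LysM-Cre, 7.44 to 7.73, at all 4 times, and the red triangles (replicate 3) are the highest FosKO points of H2-Aa, H2-Ab1, H2-Eb1 and Cd74 at each time.

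The comparison of FosKO with LysM-Cre at each time asks which genes differ between the groups labelled so. Lyz2, where the Cre sits, differed between these groups too, and Fos RNA was not lower in FosKO at 0, 1 and 2 h. Whether loss of FOS or another difference between the groups lies behind a difference below was not tested. Of the 7 genes, the 2 H2-DM chains were higher in FosKO at every time, H2-DMa by 0.44 to 0.60 and H2-DMb1 by 0.20 to 0.28 on the log2 scale. The other 5, the I-A chains, the I-E beta chain, the invariant chain and Ciita, did not pass the test at any time. At 0 h, 2 of 7 were called higher, by limma at an adjusted p under 0.05, against 19.5% of all tested genes. The same count, 2 of 7, stood against 21.2% at 0.5 h, 18% at 1 h and 24.4% at 2 h, so a share of the set of this size was near the background. None of the 7 was called lower by limma, against 15.9%, 19.7%, 15.9% and 20.3% of all tested genes at 0, 0.5, 1 and 2 h, and the number lower at an unadjusted p under 0.05 was 0 at 0, 0.5 and 1 h and 1, Ciita, at 2 h. The median difference of the set was 0.08, 0.25, 0.15 and 0.23 in order of time, beside a median of all tested genes within 0.01 of 0.

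H2-DMa, the alpha chain of the peptide exchanger, had log2 values of 7.72, 7.47 and 7.51 in the unstimulated LysM-Cre libraries and 8.03, 8.07 and 8.20 in the FosKO ones. At 0.5 h the values were 7.63, 7.62 and 7.58 against 8.20, 7.998 and 8.43, and at 1 h 7.44, 7.56 and 7.65 against 8.06, 8.16 and 8.12. At 2 h they were 7.51, 7.73 and 7.68 in LysM-Cre and 7.93, 8.10 and 8.20 in FosKO. All 12 FosKO libraries were above all 12 LysM-Cre libraries, so the groups overlapped at no time. The difference was 0.54 ± 0.09 (SE) at 0 h, a 1.45-fold higher level, with an adjusted p of 0.000136 by limma. At the later times it was 0.60, 0.57 and 0.44, each with an SE of 0.09, and the limma adjusted p was 2.91e-05, 7.73e-05 and 0.000696. Within the libraries high in 18S the difference was 0.59 at 0.5 h (2 against 2 libraries) and 0.70 at 1 h (2 FosKO against 1 LysM-Cre), and within the low ones 0.63 (1 against 1) and 0.46 (1 against 2). Brd2, which overlaps H2-DMa on the other strand and encodes a chromatin reader, differed by 0.18, 0.13, 0.06 and 0.24 at the 4 times, at levels of 12.49 to 13.93, and its part in the H2-DMa value was not tested.

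H2-DMb1, the beta chain, was at 8.91, 8.88 and 8.78 in LysM-Cre and 8.97, 9.11 and 9.14 in FosKO at 0 h. The values at 0.5 h were 8.83, 8.83 and 8.86 against 9.04, 9.03 and 9.21. At 1 h they came closest, with 8.91, 8.81 and 8.97 in LysM-Cre against 8.97, 9.17 and 9.14 in FosKO, where the highest LysM-Cre library and the lowest FosKO library both round to 8.97. At 2 h the libraries gave 8.94, 8.84 and 8.89 against 9.11, 9.20 and 9.19. Within each time the FosKO libraries were higher without overlap. The differences were 0.22 ± 0.06 (SE), 0.25, 0.20 and 0.28 at 0, 0.5, 1 and 2 h, with limma adjusted p of 0.00739, 0.0017, 0.013 and 0.000724. The call at 1 h was lost when only its 6 libraries were fitted (adjusted p = 0.0551) and when LysM-Cre replicate 2 or FosKO replicate 2 or 3 of that time was left out (adjusted p of 0.0778, 0.0767 and 0.0561). Over the alternatives other than leaving out single libraries its adjusted p ran from 0.0107 to 0.0551. Within the high 18S set the difference was 0.29 at 0.5 h and 0.25 at 1 h, and within the low set 0.18 and 0.08. H2-DMb2, a neighbouring copy of H2-DMb1 with which it may share reads, was much lower, at 3.16 to 3.71 in FosKO, and its differences of 0.09, -0.06, -0.29 and 0.22 were called at no time, so the values of both copies are uncertain to the extent that reads were split between them.

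**Figure D2:**
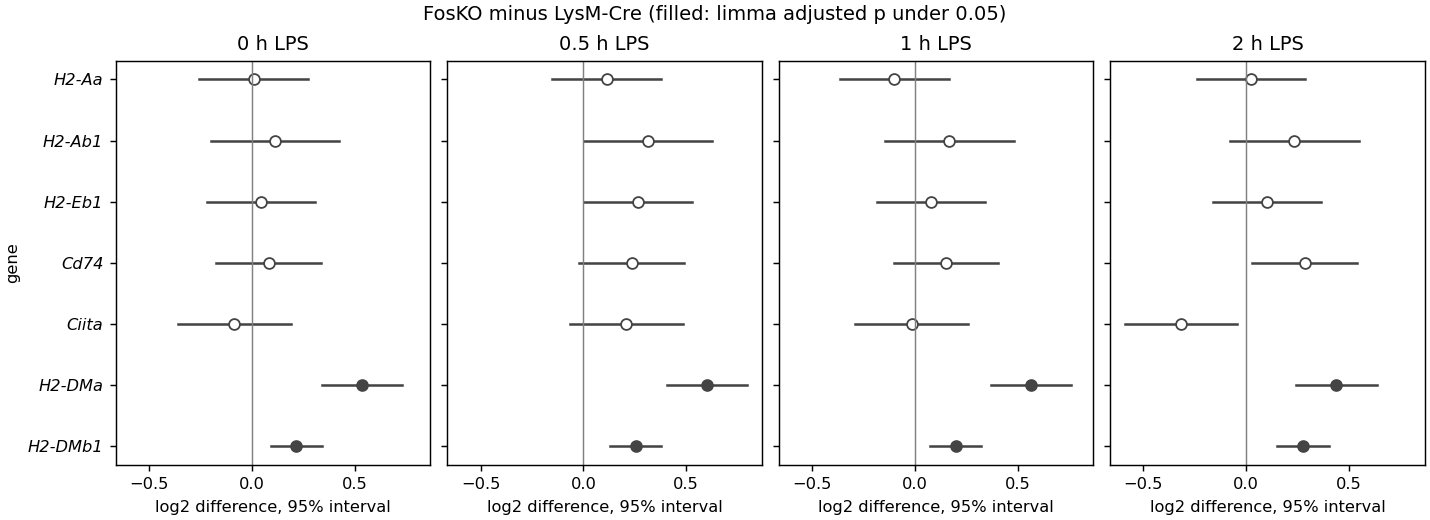
Difference between FosKO and LysM-Cre (horizontal axis, log2, with 95% intervals) for each gene (vertical axis) at each time, with filled points where the limma adjusted p was under 0.05. The filled points are those of H2-DMa, 0.44 to 0.60, and H2-DMb1, 0.20 to 0.28, and the open points of the other 5 genes run from -0.32 to 0.31.

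H2-Aa, H2-Ab1 and H2-Eb1, the genes of the I-A chains and the I-E beta chain, did not pass the test between the genotypes at any time. H2-Aa, the I-A alpha chain, was at 9.28, 9.23 and 9.26 in unstimulated LysM-Cre and 9.19, 9.12 and 9.49 in FosKO, and at 2 h at 9.37, 9.55 and 9.63 against 9.47, 9.42 and 9.73. Its difference was 0.01, 0.11, -0.10 and 0.02 in order of time, with 95% intervals that ran from -0.36 to 0.38 in all. The FosKO and LysM-Cre libraries overlapped at all 4 times.

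H2-Ab1, the I-A beta chain, was at 8.63, 8.55 and 8.61 in LysM-Cre and 8.54, 8.57 and 9.01 in FosKO at 0 h, and at 8.52, 8.63 and 8.64 against 8.74, 8.71 and 9.28 at 0.5 h. At 1 h it was at 8.70, 8.89 and 8.97 against 8.76, 9.06 and 9.24, and at 2 h at 8.78, 8.95 and 9.02 against 9.02, 9.03 and 9.41. The groups were apart at 0.5 h only, and FosKO replicate 3 was the highest of the 6 libraries at every time. The difference at 0.5 h was 0.31 (95% interval 0.00 to 0.63, limma adjusted p = 0.103), and at the other times 0.11, 0.17 and 0.23. H2-Eb1, the I-E beta chain, differed by 0.04, 0.27, 0.08 and 0.10, with the smallest limma adjusted p, 0.1, at 0.5 h, and its groups overlapped at every time. Without the 4 FosKO libraries numbered 3, an alternative chosen after seeing the data, the 0.5 h differences were 0.13 for H2-Ab1 and 0.10 for H2-Eb1. Without FosKO 0.5 h replicate 2 the H2-Eb1 difference was 0.37 and was called (limma adjusted p = 0.0379).

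Cd74, the invariant chain, was at 11.66, 11.64 and 11.63 in LysM-Cre and 11.55, 11.63 and 11.99 in FosKO at 0 h. At 0.5 h it was at 11.69, 11.75 and 11.81 against 11.85, 11.80 and 12.31, and at 1 h at 11.85, 11.98 and 12.09 against 11.95, 12.12 and 12.31. At 2 h the values were 11.95, 12.02 and 12.09 in LysM-Cre and 12.21, 12.21 and 12.50 in FosKO. The 2 h groups did not overlap, whereas those of the earlier times did. The difference at 2 h was 0.29 ± 0.12 (SE), with a limma adjusted p of 0.0642 that missed the threshold. It was called in 4 of 11 alternatives other than leaving out single libraries, with adjusted p from 0.00496 to 0.289, and fell to 0.14 with quantile normalisation (adjusted p = 0.289). Those that called it were library medians aligned (0.32, adjusted p = 0.0424), only the groups compared (adjusted p = 0.00907), the replicate block, and a fit without the 4 FosKO libraries numbered 3 (0.19, adjusted p = 0.0176). It was also called when FosKO 0 h or 0.5 h replicate 3 was left out (adjusted p of 0.038 and 0.0261).

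Ciita, the coactivator, was at 6.13, 5.97 and 6.05 in LysM-Cre and 5.77, 5.87 and 6.25 in FosKO at 0 h, and at 5.75, 5.93 and 5.86 against 5.85, 5.96 and 6.36 at 0.5 h. At 1 h it was at 6.00, 5.89 and 6.09 against 5.73, 6.11 and 6.09. At 2 h the LysM-Cre libraries were at 7.15, 7.19 and 7.02 and the FosKO libraries at 6.72, 6.77 and 6.92. The groups overlapped up to 1 h, and at 2 h all 3 FosKO libraries were below all 3 LysM-Cre libraries. The difference at 2 h was -0.32 (95% interval -0.59 to -0.04), a level 0.80 times that of LysM-Cre, and its limma adjusted p of 0.0566 missed the threshold. In 6 of 11 alternatives other than leaving out single libraries it passed, with adjusted p from 0.00845 to 0.0875 and values from -0.37 to -0.28. At 0, 0.5 and 1 h the difference was -0.09, 0.21 and -0.01. Dexi, which overlaps Ciita on the other strand, differed by -0.23 at 2 h (limma adjusted p = 0.0402), and its part in the Ciita value was not tested. The number of genes whose groups did not overlap was 2, 3, 2 and 3 of 7 upward at 0, 0.5, 1 and 2 h, against 24%, 25.9%, 23.7% and 28.9% of all tested genes, and 1 of 7 downward at 2 h, against 25.1%.

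At 0.5 and 1 h the 5 genes that were not called differed in sign or size between the 18S sets. Among the libraries high in 18S the differences at 0.5 h were 0.42 for H2-Ab1, 0.39 for H2-Eb1, 0.33 for Cd74, 0.32 for Ciita and 0.23 for H2-Aa (2 against 2 libraries), and between the low pair they were 0.10, 0.01, 0.04, -0.01 and -0.12. At 1 h the high set gave 0.45, 0.30, 0.36, 0.11 and 0.12 in the same order (2 FosKO against 1 LysM-Cre), and the low set -0.17, -0.18, -0.08, -0.26 and -0.33 (1 against 2). Both low FosKO libraries were numbered 1, so the high set held both FosKO libraries numbered 3 of these times.

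The FosKO libraries numbered 3 stood above the others for the I-A chains, the I-E beta chain and the invariant chain. In FosKO, replicate 3 was the highest of its group at 4 of 4 times for H2-Aa, H2-Ab1, H2-Eb1 and Cd74, with a mean excess over replicates 1 and 2 of 0.34, 0.43, 0.34 and 0.36. The excess of Ciita was 0.31 and that of H2-DMa 0.17, highest at 3 of 4 times each, and that of H2-DMb1 was 0.09, highest at 2 of 4. Among the tested genes, the FosKO excess of H2-Aa, H2-Ab1, H2-Eb1 and Cd74 lay at percentiles 97.7 to 98.6. In LysM-Cre the excess of replicate 3 was 0.14 for H2-Eb1, 0.11 for H2-Aa, 0.10 for H2-Ab1 and 0.09 for Cd74, and within 0.02 of 0 for Ciita and both H2-DM genes. Replicate 3 was the highest LysM-Cre library at 4 of 4 times for H2-Eb1 and at 3 of 4 for H2-Aa, H2-Ab1 and Cd74. The sum of the 9 dendritic cell markers was also highest in replicate 3 at all 4 times in FosKO, at 2937, 2860, 3080.2 and 3247 in order of time against 2461 to 3066 in the others, and lowest in replicate 3 at all 4 times in LysM-Cre. The T cell sum, nearly all Cd4, was likewise highest in replicate 3 at all 4 times in FosKO, at 345, 349.5, 282.9 and 292.5. In LysM-Cre it was highest in replicate 3 at 0.5, 1 and 2 h. The FosKO macrophage sum without Lyz2 was highest in replicate 3 at 0, 0.5 and 1 h. For the neutrophil sum this held at 1 h only, and for the B cell sum at no time. The part of these sums in the excess was not tested. The labels do not say whether libraries of 1 number came from the same mouse or culture. For H2-Ab1 the excess reached 0.56 at 0.5 h, above the largest genotype difference of that gene, 0.31.

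**Figure D3:**
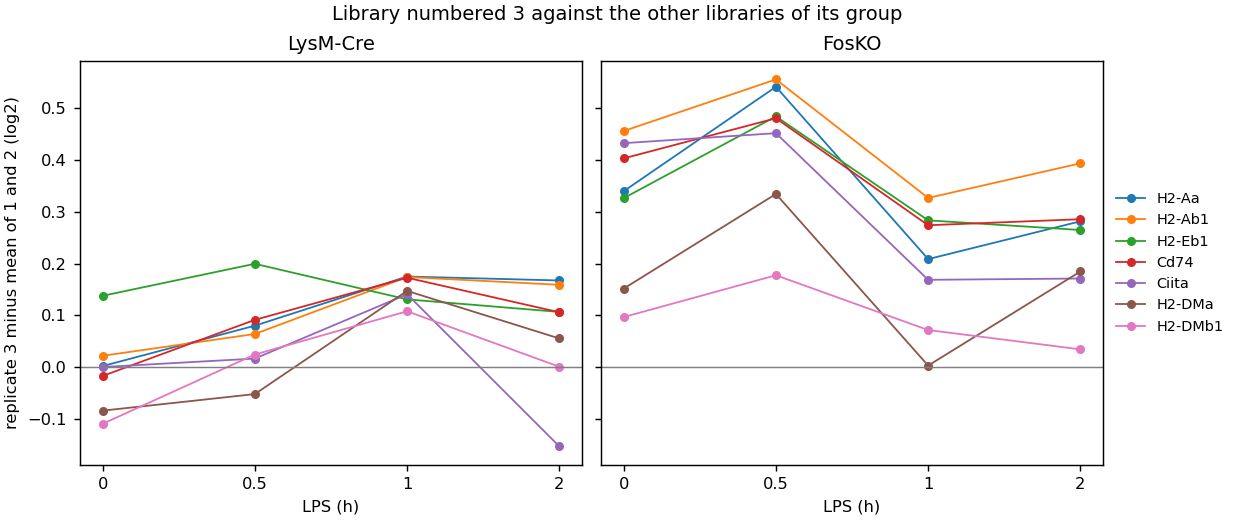
Value of the library numbered 3 minus the mean of the libraries numbered 1 and 2 (vertical axis, log2) against hours of LPS (horizontal axis), for each gene, in LysM-Cre (left) and FosKO (right). In FosKO the lines of H2-Aa, H2-Ab1, H2-Eb1 and Cd74 stay between 0.21 and 0.56, and in LysM-Cre they stay between -0.02 and 0.20.

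The comparison of each LPS time with 0 h asks how the genes responded in each genotype, and the 3 comparisons of a genotype share its unstimulated libraries. After 2 h Ciita was higher in both genotypes, by 1.07 in LysM-Cre and 0.84 in FosKO, as was Cd74, by 0.38 and 0.58. In FosKO H2-Ab1 and H2-Eb1 were also called, by 0.44 and 0.34. Of the 7 dendritic cell markers tested, 3 were higher and 0 lower at 2 h in LysM-Cre and 4 and 0 in FosKO, and the median sum of all 9 went from 3145 to 3481 and from 2593 to 3066. Their part in these changes was not tested. The H2-DM genes did not pass the test in any LPS comparison, with changes from -0.03 to 0.11, except that with library medians aligned H2-DMb1 was called higher at 2 h in FosKO (0.15 against 0.09, limma adjusted p = 0.038). At 2 h 2 of 7 genes were called higher in LysM-Cre against 30.6% of all tested genes, and 4 of 7 in FosKO against 32.6%. At 1 h only Cd74 was called in each genotype, 1 of 7 against 19.2% in LysM-Cre and 17.6% in FosKO. At 0.5 h no gene of the set was called by limma in either genotype, against 7.24% and 5.92% of all tested genes in either direction, and the number at an unadjusted p under 0.05 was 0 in LysM-Cre and 1, Cd74, in FosKO. None was called lower at 1 or 2 h, against 16.5% of all tested genes at 1 h and 4200 of the 13901 at 2 h in LysM-Cre (60.8% were called there in either direction) and 15% and 29.5% in FosKO, and none was lower at an unadjusted p under 0.05.

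The Ciita response appeared between 1 and 2 h. From the values of each library given above, those at 0, 0.5 and 1 h lay between 5.73 and 6.36 in both genotypes and those at 2 h between 6.72 and 7.19. The change in LysM-Cre was -0.21 at 0.5 h, -0.06 at 1 h and 1.07 ± 0.13 (SE) at 2 h, a 2.10-fold rise with a limma adjusted p of 4.49e-07. In FosKO it was 0.09, 0.01 and 0.84 ± 0.13, a 1.79-fold rise at 2 h (limma adjusted p = 1.09e-05). Every 2 h library was above every unstimulated library of its genotype. Dexi, which overlaps Ciita on the other strand at levels of 6.33 to 7.12, was also called higher at 2 h in both genotypes. Its part in the Ciita rise was not tested. The transcripts of Ciita that start at different promoters were not resolved in a table of genes.

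Cd74 passed the test at 1 h as well as at 2 h, and its 1 h calls depended on the setting. In order of time its mean in LysM-Cre was 11.64 ± 0.02 (SD, n = 3), 11.75 ± 0.06, 11.97 ± 0.12 and 12.02 ± 0.07, and in FosKO 11.73 ± 0.24, 11.99 ± 0.28, 12.13 ± 0.18 and 12.31 ± 0.17. In LysM-Cre the stimulated libraries of each time lay above the unstimulated ones without overlap, whereas in FosKO this held at 2 h only. The change was 0.33 at 1 h in LysM-Cre (limma adjusted p = 0.0398) and 0.40 in FosKO (0.015), and at 2 h 0.38 (0.0108) and 0.58 (0.000308). Quantile normalisation ended the calls in LysM-Cre at 1 h (0.17, adjusted p = 0.224) and 2 h (0.12, adjusted p = 0.336) and in FosKO at 1 h (0.25, adjusted p = 0.0703), and lowered the 2 h change in FosKO to 0.26, which was still called. The 1 h call in LysM-Cre was also lost without the filter on low values (adjusted p = 0.0653) or the variance trend (adjusted p = 0.0537), and when 0 h replicate 1, 2 or 3 or 1 h replicate 2 or 3 of LysM-Cre was left out (adjusted p of 0.0751 to 0.146). That in FosKO was lost when only its groups were fitted (adjusted p = 0.0714) and when 0 h replicate 1 or 2 or 1 h replicate 3 was left out (adjusted p of 0.0624 to 0.0915). Among libraries high in 18S the 1 h change in LysM-Cre was 0.21 and not called (adjusted p = 0.448), with a single LysM-Cre library at 1 h that was assumed to vary like the other groups.

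Of the chains of I-A and I-E, H2-Ab1 and H2-Eb1 passed the test at 2 h in FosKO, none of the 3 did in LysM-Cre, and H2-Aa did in neither genotype. At 2 h the change in LysM-Cre was 0.26 for H2-Aa, 0.32 for H2-Ab1 and 0.29 for H2-Eb1, each ± 0.13 to 0.15 (SE), with limma adjusted p of 0.0809, 0.0717 and 0.0555 that missed the threshold. These were called in 4, 5 and 6 of 12 alternatives other than leaving out single libraries, all 3 when only the groups compared were fitted (adjusted p of 0.00222, 0.00089 and 0.00214) and with either replicate block. In FosKO the values were 0.28, 0.44 and 0.34, with limma adjusted p of 0.0639, 0.0146 and 0.0218. H2-Aa was called there in 4 of 12 such alternatives, with library medians aligned, with either replicate block and without the 4 FosKO libraries numbered 3 (limma adjusted p down to 0.00135), and in 3 of 24 fits that left out a single library. In LysM-Cre all 3 libraries at 2 h were above all 3 at 0 h for each of these chains and for Cd74 and Ciita, 5 of 7 genes against 33.9% of all tested genes, and in FosKO this held for 4 of 7, against 33.3%. At 1 h it held for 4 of 7 in LysM-Cre, against 25.8%, and for 0 of 7 in FosKO, against 20.2%. The FosKO calls of H2-Ab1 and H2-Eb1 at 2 h were lost when 2 h replicate 3 was left out (0.31 and 0.26, adjusted p of 0.101 and 0.117), when 0 h replicate 1 was (0.36 and 0.26, adjusted p of 0.0717 and 0.111) and when 0 h replicate 2 was (0.37 and 0.32, adjusted p of 0.0649 and 0.0627).

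For the change at 0.5 h in FosKO the libraries of the same number deviated together, with correlations across genes of 0.19, 0.13 and 0.27 for numbers 1, 2 and 3. With a replicate block within genotype, 2 of 7 genes were called higher there, against 6.06% of all tested genes in the same fit. They were H2-Eb1 by 0.25 (limma adjusted p = 0.00867) and Cd74 by 0.26 (limma adjusted p = 0.00185). Without the block their adjusted p was 0.291 and 0.246, and in that fit leaving out FosKO 0.5 h replicate 3 lowered the changes to 0.09 and 0.10 and leaving out 0 h replicate 3 raised them to 0.36 and 0.40. Each of the 3 FosKO numbers was higher at 0.5 h than at 0 h for both genes, while the groups overlapped, and number 3 was the highest FosKO library at both times.

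**Figure D4:**
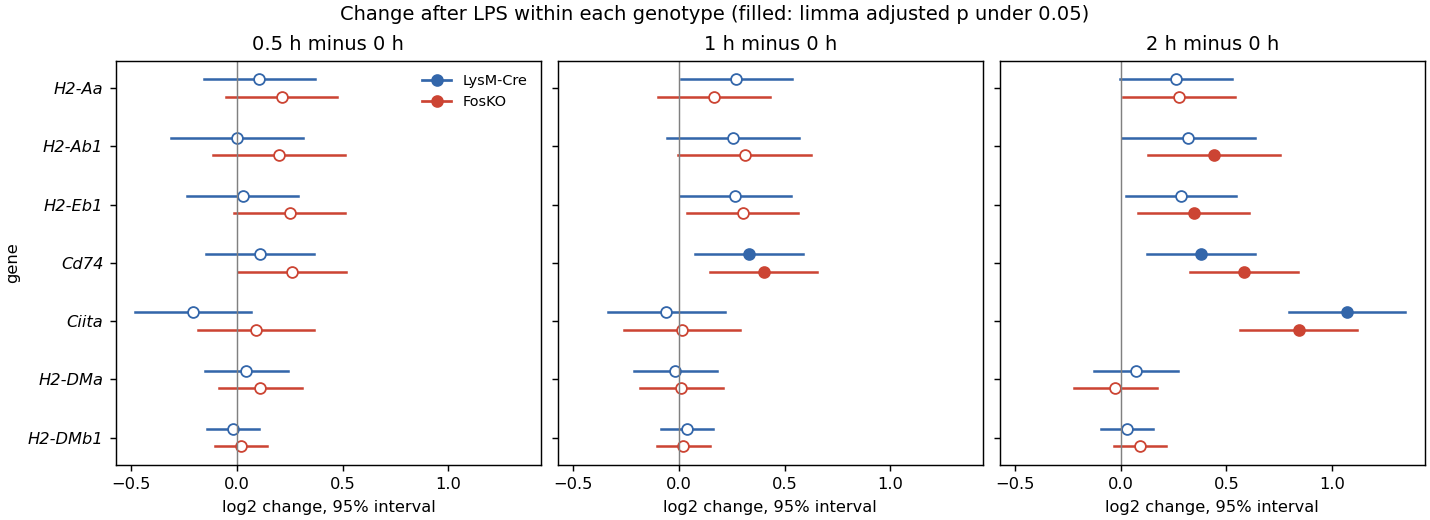
Change from 0 h (horizontal axis, log2, with 95% intervals) of each gene (vertical axis) after 0.5, 1 and 2 h of LPS in LysM-Cre (blue) and FosKO (red), with filled points where the limma adjusted p was under 0.05. The largest change is that of Ciita at 2 h, 1.07 in LysM-Cre and 0.84 in FosKO, and the points of both H2-DM genes stay between -0.03 and 0.11.

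Whether the response to LPS differed between the genotypes was tested as an interaction. No gene of the set was called by limma at 0.5, 1 or 2 h, against 0.115%, 1.22% and 15% of all tested genes, and none had an unadjusted p under 0.05. For Ciita at 2 h the response in FosKO minus that in LysM-Cre was -0.23, with a 95% interval of -0.62 to 0.16 and a limma adjusted p of 0.474. It was -0.09 without FosKO 0 h replicate 3 and -0.33 without FosKO 0 h replicate 1. For Cd74 the difference was 0.20, with an interval of -0.16 to 0.56, and ran from 0.11, without FosKO 2 h replicate 3, to 0.34, without FosKO 0 h replicate 3. The intervals of H2-Aa, H2-Ab1 and H2-Eb1 at 2 h were -0.36 to 0.39, -0.32 to 0.56 and -0.31 to 0.43, and those of H2-DMa and H2-DMb1 were -0.38 to 0.18 and -0.12 to 0.24. The intervals of H2-Aa, H2-Ab1 and H2-Eb1 included values as large as their own responses, and that of Ciita did not.

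Across the 24 libraries the likeness between the genes differed from pair to pair. As a description over libraries that share groups and processing, Pearson's r was 0.85 to 0.97 among H2-Aa, H2-Ab1, H2-Eb1 and Cd74, and 0.87 between H2-DMa and H2-DMb1. H2-DMa had r of 0.25 to 0.55 with the first 4 and H2-DMb1 0.33 to 0.66, each lowest with H2-Aa and highest with H2-Ab1. Ciita had r of 0.52 to 0.58 with the first 4, 0.03 with H2-DMa and 0.20 with H2-DMb1. The 5 tested genes most like the mean of H2-Aa, H2-Ab1, H2-Eb1 and Cd74 were Nadk (r = 0.86), Pirb (0.85), RP24-417N13.7 (0.84), Ralgds (0.84) and the class I gene H2-Q6 (0.83). Those most like Ciita were Synpo2 (0.96), Lpar1 (0.96), Gm44154 (0.95), Cnep1r1 (0.95) and Tspan33 (0.95).

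Of the other class II genes, H2-Ob, the beta chain of the H2-DM inhibitor H2-O, and H2-DMb2 were high enough to test, and H2-Oa and H2-Eb2 were not. H2-Ob was low, at 2.22 to 3.06 in log2 over the 24 libraries, close to the filter on low values. It was higher in FosKO at 2 h by 0.41 (limma adjusted p = 0.0452). Its differences at 0, 0.5 and 1 h were 0.27, 0.39 and 0.14. H2-DMb2 was lower at 2 h of LPS in LysM-Cre by a change of -0.30 (limma adjusted p = 0.0345).

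The factors that bind class II promoters or join CIITA there showed calls in both directions between the genotypes. Of 11 tested, the number higher and lower in FosKO was 2 and 1, 2 and 2, 0 and 2, and 2 and 3 in order of time, against 18% to 24.4% of all tested genes higher and 15.9% to 20.3% lower, with medians from -0.06 to 0.01. Rfx5, which binds the X box, was higher before LPS, by 0.22, and at 0.5 h, by 0.30, and its partner Rfxap was lower by a difference of -0.22 at 0 h and -0.22 at 2 h. Kat2b, a histone acetyltransferase, was higher by 0.50 at 2 h. After 2 h of LPS, 3 were higher and 5 lower in LysM-Cre, and 5 and 5 in FosKO, against 30.6% and 32.6% of all tested genes higher and 4200 and 4106 of the 13901 lower, with Creb1 higher by 0.79 and 0.62 and Rfx5 by 0.60 and 0.35.

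Of 13 known regulators of Ciita, the counts higher and lower in FosKO were 10 and 2, 9 and 2, 4 and 2, and 6 and 2 in order of time, against 18% to 24.4% of all tested genes higher and 15.9% to 20.3% lower, and the medians of the list were 0.16, 0.16, 0.10 and 0.07. Irf1, an activator of Ciita, exceeded its LysM-Cre level by 0.61 before LPS and by 0.35 after 2 h. Irf8 was higher by 1.33 and Irf4 lower by a difference of -0.98 at 2 h. Socs1, an inhibitor of JAK signalling, was higher by 0.66 to 1.08 at 0 and 0.5 h. After 2 h of LPS 10 of 13 were higher and 1 lower in LysM-Cre, and 10 and 2 in FosKO, against 30.6% and 32.6% of all tested genes higher and 4200 and 4106 of the 13901 lower. These included Irf1 (2.69 and 2.43), Jak2 (2.47 and 2.09) and Prdm1, a repressor of Ciita (1.80 and 1.67), in LysM-Cre and FosKO.

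Genes of class II processing and turnover were split. Of 13, the counts higher and lower in FosKO were 6 and 4, 8 and 4, 6 and 4, and 6 and 3 in order of time, against 18% to 24.4% of all tested genes higher and 15.9% to 20.3% lower. Ctss, the protease that trims the invariant chain, was higher by 0.32 to 0.42, and Ctsz by 0.49 to 0.68. Ctsl, a related cathepsin, differed by -0.79 to -0.65 and Ifi30, the lysosomal thiol reductase, by -0.28 to -0.23, both lower. March1, the ubiquitin ligase that removes class II from the surface, was higher in FosKO by 0.33, 0.51, 0.47 and 0.78 at 0, 0.5, 1 and 2 h, and changed by -0.94 in LysM-Cre and -0.49 in FosKO after 2 h of LPS. March1 was read by its Ensembl identifier because its symbol in the table had been turned into a date.

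The class I pathway, which loads peptides made in the cytosol, was higher as a whole in FosKO. All 13 of its genes were called higher at each of the 4 times, against 19.5%, 21.2%, 18% and 24.4% of all tested genes, with medians of 0.47, 0.66, 0.49 and 0.44. Nlrc5, the class I counterpart of Ciita, was at 10.98, 10.82 and 10.82 in unstimulated LysM-Cre and 11.28, 11.54 and 11.74 in FosKO, a difference of 0.65 (limma adjusted p = 5.75e-05), and differed by 1.02 at 2 h. Tap1, the peptide transporter, differed by 0.81 and 0.75, and B2m, the light chain, by 0.47 and 0.50, at 0 and 2 h. The Tap and Psmb8 and Psmb9 genes lie within the same class II region of chromosome 17 as H2-DMa. So do H2-DMb1, H2-Ab1, H2-Aa and H2-Eb1, and of these only H2-DMb1 was called between the genotypes. The H2-DMa differences of 0.44 to 0.60 were of the size of these medians. Those of H2-DMb1, 0.20 to 0.28, H2-Ab1, 0.11 to 0.31, and Cd74, 0.08 to 0.29, were below them. So were those of H2-Eb1, 0.04 to 0.27, H2-Aa, -0.10 to 0.11, and Ciita, -0.32 to 0.21. Whether the class II and class I genes differ in response was not tested.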

How the data were processed

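RNA of 24 libraries was sequenced single-end. According to the study's methods and the submitters' processing notes, the authors aligned reads to mouse GRCm38 with STAR 2.5.2a, counted genes with RSEM 1.2.31 and normalised with DESeq2 (1.16.1 in the authors' processing notes, another version in the methods). The values are log2 normalised expression as deposited by the authors, with the transformation not given in the sources used here. Very low genes sit below 0 with little spread, so differences of low genes may be understated, and the depth of each library is unknown, with only a typical yield in the methods. The table carries Ensembl identifiers, while the methods name RefSeq.

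The deposited values were fitted with limma 3.58.1 in R 4.3.3, as 8 group means with a variance trend (16 residual degrees of freedom), over the 13901 of 24273 genes at a linear value of 5 or more in at least 3 libraries. There were 13 comparisons, with two-sided tests, Benjamini-Hochberg adjustment over all tested genes and calls at an adjusted p under 0.05. The fit was tested on simulated data. The study calls the libraries biological replicates, the labels name no animals, and p-values measure only the spread between these libraries. Libraries were taken as paired by number where the correlation of their deviations across genes was over 0.1 for all 3 numbers. This held for the 0.5 h change in FosKO alone (0.19, 0.13 and 0.27).

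The members and gene lists were chosen with earlier results of these data known. Named were the 7 members, the genes of direct role in the lists, and the 5 genes most like each pattern. Brd2 and Dexi were added afterwards because they overlap members. Alternatives covered scaling, filters, a pseudocount of 1, the variance model, replicate blocks, the 18S sets and each library left out.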

Additional observations from a re-analysis of the deposited data

How the results depend on the processing

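No result for a gene of the set changed sign among those that passed the test. Over 91 results and their alternatives, 3139 of 3248 values kept their side of the threshold, 25 lost a call, 84 gained one and 0 reversed. The calls of H2-DMa between genotypes held in all alternatives at all 4 times, and those of H2-DMb1 did so at 0, 0.5 and 2 h. Scaling moved the median of all genes by less than 0.1. Of the calls over all genes, the share that was higher fell with quantile normalisation. In the 4 comparisons between genotypes it was 51.9% to 55.1% as reported and 42.8% to 45.6% with that scaling. In the 6 LPS comparisons it was 50.3% to 75.2% as reported and 35.3% to 50.3% with that scaling. With library medians aligned it rose from 48.5% to 59.1% for the difference in response at 2 h. The cause of the changes below was not tested.

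The number of the 7 genes higher after 1 h in LysM-Cre, 1 as reported, was 0 with quantile normalisation, no filter, no variance trend or libraries high in 18S only, and 4 with only the groups compared, with either replicate block or without the 4 FosKO libraries numbered 3. At 2 h in LysM-Cre, 2 as reported, it was 4 with library medians aligned and 5 with only the groups compared, with either replicate block or without those 4 libraries. After 1 h in FosKO, 1 as reported, it was 0 with quantile normalisation or only the groups compared, 2 in libraries high in 18S, and 3 with either block or without those 4 libraries. At 2 h in FosKO, 4 as reported, it was 6 with library medians aligned (against 37.8% of all genes) and 5 with either block or without those 4 libraries (against 30.6% to 33.5%). At 0.5 h in FosKO, where none was called, either replicate block gave 2, where 5.13% and 6.06% of all tested genes were called higher. Over the same alternatives the share of all genes called higher was 10.2% to 21% after 1 h and 30.8% to 33.6% after 2 h in LysM-Cre, and 11.5% to 19.3% after 1 h in FosKO. Between genotypes, the number higher at 0.5 h, 2 as reported, was 5 with the replicate block (against 21.9% of all genes), with H2-Ab1, H2-Eb1 and Cd74 added at limma adjusted p of 0.0129, 0.0043 and 0.0189, and at 1 h it was 1 with only the groups compared. At 2 h it was 3, with Cd74 added, in place of 2 with library medians aligned, only the groups compared, the replicate block or without the 4 FosKO libraries numbered 3 (against 24% to 27.9% of all genes). The number lower at 2 h, 0 as reported, was 1, Ciita, with a filter at 50, only the groups compared, the replicate block, 18S as a term, libraries high in 18S only or without the 4 FosKO libraries numbered 3, where 18.9% to 24.2% of all genes were called lower. The block within genotype called 1 gene, Cd74, for a larger response at 2 h in FosKO (0.20, limma adjusted p = 0.0491), against 9.26% of all genes higher. Of the comparisons between genotypes, none had a correlation of deviations over 0.1 for all 3 replicate numbers. At 0.5 h these correlations were -0.46, 0.31 and -0.33 for numbers 1, 2 and 3.

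With single libraries left out, the number of the 7 genes higher between genotypes at 1 h was 1 to 2 (against 15.2% to 18.6% of all genes), at 0.5 and 2 h it was 2 to 3 (against 17.8% to 21.8% and 21.9% to 25%), and the number lower at 2 h was 0 to 1 (against 17.6% to 20.8%). The number higher after 1 h was 0 to 2 in LysM-Cre and 0 to 3 in FosKO, and after 2 h it was 2 to 5 in each, against 14.8% to 20% of all genes after 1 h and 28.8% to 32.8% after 2 h. Among all genes the change at 0.5 h in FosKO, 823 calls as reported, ranged from 542 to 960, and the difference in response at 0.5 h, 16 as reported, from 9 to 24.

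Over all genes, the difference in response at 0.5 h gave 25 calls with quantile normalisation or the block within genotype, 6 with only the groups compared and 9 in libraries high in 18S. The difference at 1 h, 169 as reported, gave 112 with only the groups compared and 93 in libraries high in 18S. The change at 0.5 h in FosKO gave 301 with only the groups compared. In libraries high in 18S, 2994 genes differed between genotypes at 1 h, against 4708, and 3009 changed after 1 h in LysM-Cre, against 4970.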
